A study of Mus musculus with 24 samples.

Results

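Ikzf1, Ikzf2, Ikzf3 and Ikzf4 encode Ikaros, Helios, Aiolos and Eos, 4 related zinc-finger transcription factors of lymphocytes. A peak of open chromatin was counted as a member when its summit lay inside one of these genes, or within 100 kb with that gene as the nearest protein-coding gene, in a peak list of at least 10000 rows. The rule found 679 member peaks in 18 lists, of 586440 peaks in all 24 lists: 261 for Ikzf1, 200 for Ikzf2, 160 for Ikzf3 and 58 for Ikzf4. Of these, 514 had their summit inside the gene and 165 beyond one of its ends. Being nearest to a gene does not show that a region regulates it.

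Ikaros family proteins bind DNA through their N-terminal zinc fingers, whose core recognition letters are GGGAA, and pair with each other through C-terminal fingers. They recruit the NuRD complex and other corepressors, and so mostly act on the chromatin of other genes. Ikaros is required for lymphocyte development, Aiolos is known for late B cell maturation, and Helios and Eos are best known from regulatory T cells. Helios is also made by some CD8 T cells, among them cells under chronic stimulation.

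The libraries were bulk Omni-ATAC, an assay in which the transposase Tn5 cuts accessible DNA, from sorted CD8 T cells of mice bearing subcutaneous B16-F10 melanoma. All groups came from C57BL/6 mice of the genotype Lag3-iCreERT2 Rosa26-LSL-tdTomato. All were given 2 mg tamoxifen on days 8 to 10 after implantation and taken on day 19. Cre is driven by Lag3, so tdTomato marks cells in which Cre acted while Lag3 was expressed under tamoxifen, and their descendants. The labels do not say what share of such cells was marked, so tdTomato- cells may include some that expressed Lag3. From tumor, 4 groups were used: DN (LAG3- tdTomato-), DP (LAG3+ tdTomato+), LAG3_SP and TDT_SP, with 3 libraries each. Of DN, LAG3_SP and TDT_SP, 1 library each was used from the lymph node draining the tumor (DLN) and 1 from a node that does not drain it (NDLN). Libraries named LAG3_SP are labelled LAG3- tdTomato+, against their name, and libraries named TDT_SP are labelled tdTomato+ with no LAG3 state. Both are called here by their library names, with their LAG3 state taken as unknown. For LAG3_SP the tdTomato state is taken as unknown too, since name and label disagree. The labels do not give age, sex or pooling, and do not say that replicates were separate animals, so p-values measure only the spread between these libraries. Every library carries the same batch label. In a bulk library, fewer cells with an open site and a less open site in every cell cannot be told apart.

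The 18 lists held 14244 to 48268 peaks, and 6 lists of 301 to 6613 peaks were left out of the comparisons. NDLN LAG3_SP replicate 1 had the shortest list used, so its strongest 14000 peaks were nearly its whole list, and it often stood apart from the other nodes. In tumor the shortest lists used were LAG3_SP replicate 3 with 19679 peaks and DN replicate 4 with 19771. Of 7 CD8 T cell markers, 6 had kept peaks in every tumor group and in the lymph nodes (Trac was not in the gene table). Cd79a, Cd79b and Ms4a1 of B cells, Lyz2, Csf1r and Adgre1 of myeloid cells, Tyr, Dct and Sox10 of melanoma and Ncr1 of NK cells had no kept peak in any group. The other genes of the melanoma and NK lists did: the melanoma list had kept peaks at 2 or 3 of 6 genes and summed to between 1.96 and 3.12 rank units in every group, and the NK list had them at 2 or 3 of 4 genes and summed to between 1.26 and 3.08.

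Values below are rank values. The strongest peaks of each library by the authors' -log10 p were kept, 19000 for comparisons within tumor and 14000 where lymph nodes were included, and each peak was given its quantile: 1 is the strongest kept peak, and 0 means no kept peak. A rank value describes the order of peaks inside a library, not an amount of open chromatin. Regions are 501 bp windows around summits. A region was called at an adjusted p under 0.05 (limma, Benjamini-Hochberg over all regions of the series), and SE is the standard error of a difference. The 4 genes had 27 of the 27065 regions within tumor and 24 of the 22997 regions with lymph nodes.

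Positions are on mouse build GRCm38. Ikzf1 lies at chr11:11684962-11772930, Ikzf2 at chr1:69531207-69687351, Ikzf3 at chr11:98464610-98546031 and Ikzf4 at chr10:128630839-128669671. The gene table gave no strands or exons, so a position is given as kb from the end of the gene with the lower coordinate. RefSeq promoter windows (GRCm38.p6, 250 bases before a transcript start and 50 after) matched 1 of the 4 genes, Ikzf1, which has 2 annotated starts on the plus strand. Both windows are shown because they differ in base composition and in how often a peak covered them. Capitals mark the letters GGGAA or, on the other strand, TTCCC.
Ikzf1 window at chr11:11685675-11685974: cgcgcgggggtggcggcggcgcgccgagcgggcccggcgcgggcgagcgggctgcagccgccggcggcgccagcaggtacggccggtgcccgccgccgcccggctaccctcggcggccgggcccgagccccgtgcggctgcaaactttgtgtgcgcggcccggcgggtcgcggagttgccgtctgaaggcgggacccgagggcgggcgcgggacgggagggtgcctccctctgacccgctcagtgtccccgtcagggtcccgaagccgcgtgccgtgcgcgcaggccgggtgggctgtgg
Ikzf1 window at chr11:11689927-11690226: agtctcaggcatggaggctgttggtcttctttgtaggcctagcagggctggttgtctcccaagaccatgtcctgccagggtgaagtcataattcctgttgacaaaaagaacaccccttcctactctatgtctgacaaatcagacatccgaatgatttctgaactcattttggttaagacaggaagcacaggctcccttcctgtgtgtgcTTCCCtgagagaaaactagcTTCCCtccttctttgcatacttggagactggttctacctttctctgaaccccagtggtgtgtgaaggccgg
The first window had a GC content of 81.3% with 52 CpG dinucleotides and no match to GGGAA on either strand. The second had a GC content of 49.0%, 2 CpG dinucleotides and 2 matches, both as TTCCC. Of all 32851 promoter windows of this length, 62.7% held GGGAA on either strand, the median GC content was 52.7% and the median was 7 CpG dinucleotides. A peak overlapped the CpG-rich first window in 7 of the 18 lists, and never among the strongest 14000 or, in tumor, the strongest 19000. The second window was overlapped in 16 of 18 lists, in 6 among the strongest 14000, and in 7 of 12 tumor lists among the strongest 19000. A match to the letters is a description and shows no binding.

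The 4 loci differed in how much open chromatin was assigned to them. With the strongest 14000 peaks, Ikzf1 had a mean of 5.333 kept peaks per library, more than 99.0% of the 12378 genes with a kept peak. Ikzf2 had 4.667, more than 98.5% of genes, and lies in a wide stretch whose next coding genes are 422.6 kb below (Erbb4) and 139.5 kb above (Spag16). Ikzf3 had 1.444 and Ikzf4 had 1.5, more than 78.5% and 79.8% of genes. Ikzf3 and Ikzf4 are hemmed in by neighbours, Mien1 and Zpbp2 at 6.4 and 5.1 kb and Rps26 and Suox at 4.3 and 0.2 kb, so the nearest-gene rule gave them little flanking sequence. The farthest member peak was 77.1 kb from Ikzf2, 28.44 kb from Ikzf1 and 3.17 kb from Ikzf3, and all Ikzf4 members lay inside the gene. The nearest peak given to a neighbour instead was 72.37 kb from Ikzf2 (Spag16), 15.69 kb from Ikzf1 (Fignl1), 3.97 kb from Ikzf3 (Zpbp2) and 4.0 kb from Ikzf4 (Rps26).

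**Figure D1:**
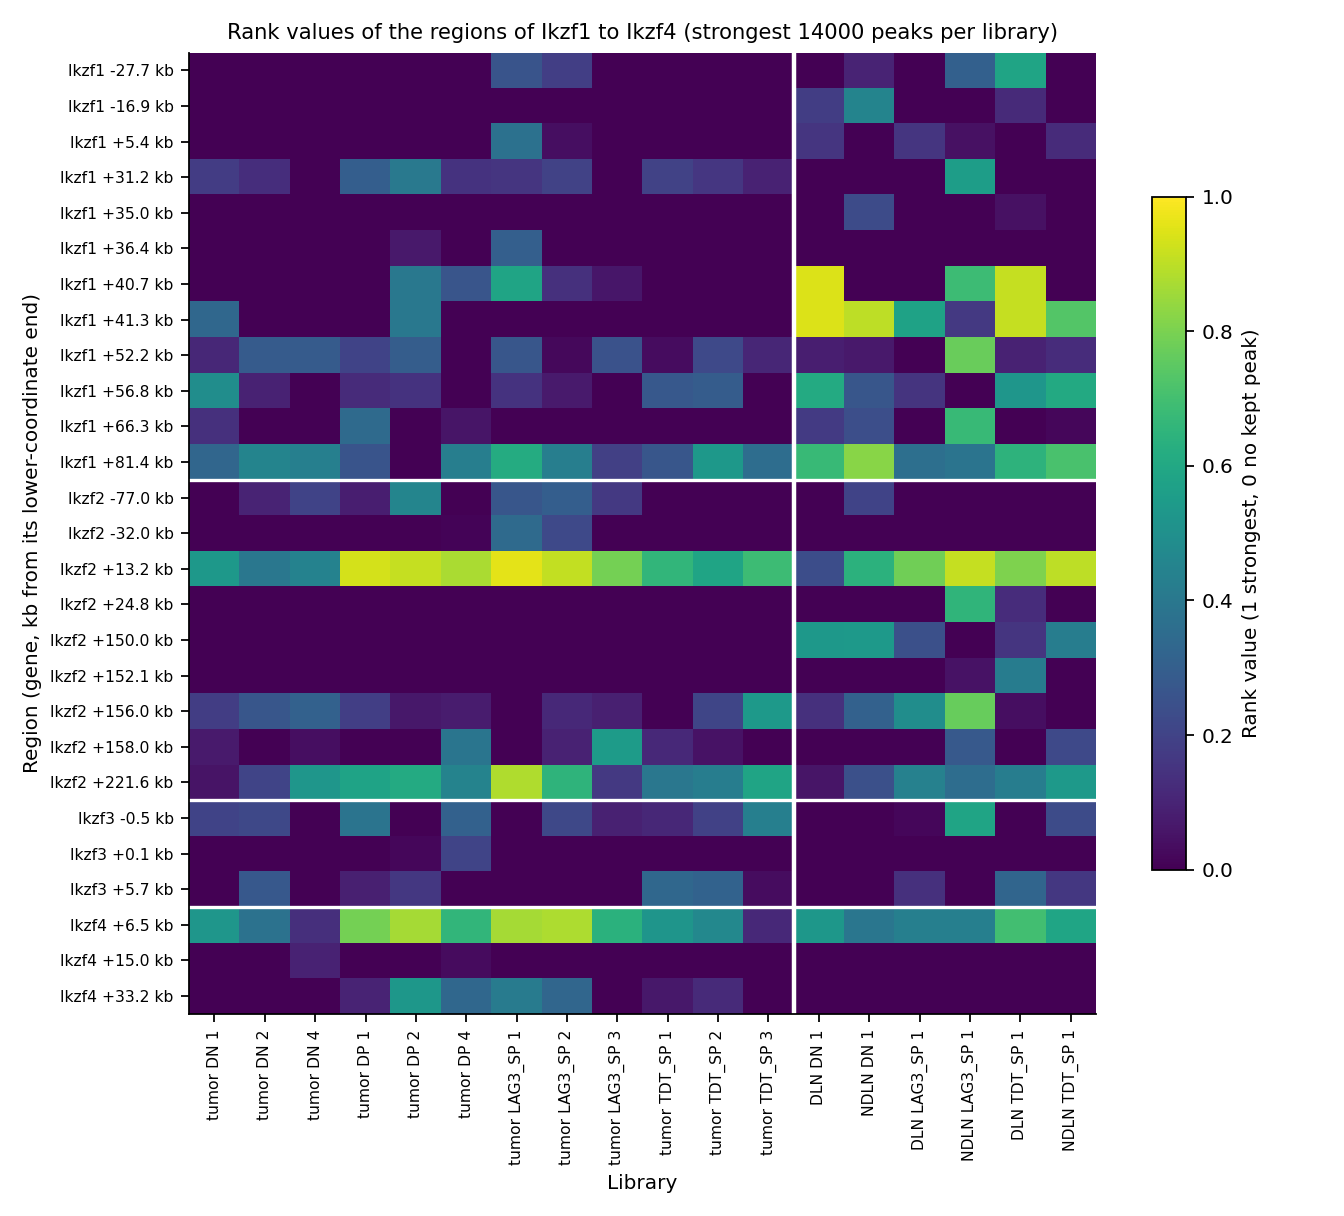
Rank values of the member regions (rows, by gene and kb from its lower-coordinate end) in the 18 libraries (columns, tumor left of the white line, lymph nodes right), strongest 14000 peaks per library. The Ikzf2 row at 13.2 kb is bright in tumor DP and LAG3_SP and dimmer in tumor DN, and the Ikzf1 row at 41.3 kb is bright in lymph nodes and mostly at 0 in tumor.

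Ikzf2, which encodes Helios, held the only member region called within tumor. It lies inside the gene at chr1:69544118-69544618, 13.16 kb from its lower end, and it ranked higher in DP and LAG3_SP cells than in DN cells. It also had the highest mean rank value of all 27 member regions, 0.796 over the 12 tumor libraries. A peak covered it in all 18 lists, with summits within 100 bp of each other.
The 3 tumor DN libraries had rank values of 0.656, 0.557 and 0.591, and the 3 DP libraries had 0.952, 0.935 and 0.906. LAG3_SP had 0.970, 0.933 and 0.845, and TDT_SP had 0.747, 0.694 and 0.769. DN was lowest and TDT_SP next, and neither overlapped another group. DP and LAG3_SP overlapped each other. The authors' fold enrichment of the peak was 8.03 to 13.9 in DN, 11.8 to 16.2 in TDT_SP, 14.3 to 21.8 in DP and 11.6 to 22.8 in LAG3_SP. In its full list the peak ranked in the strongest 2.0% to 7.46% in DP, and between 19.8% and 39.0% from the top in DN.
The difference DP minus DN was 0.329 (SE 0.0428, adjusted p = 0.00153) and LAG3_SP minus DN was 0.314 (SE 0.0428, adjusted p = 0.00171). TDT_SP minus DN was 0.135 (adjusted p = 0.271), TDT_SP minus DP was -0.194 (adjusted p = 0.113) and LAG3_SP minus TDT_SP was 0.179 (adjusted p = 0.0672), none of which passed. LAG3_SP minus DP was -0.015 (SE 0.0428, adjusted p = 1). Without any 1 library both calls against DN held, with adjusted p between 0.00172 and 0.0171 for DP and between 0.00215 and 0.0107 for LAG3_SP, and without tumor LAG3_SP replicate 3 LAG3_SP minus TDT_SP also passed (0.215, adjusted p = 0.025). The calls were lost when only the compared groups were fitted (adjusted p = 0.0643 and 0.0919), a fit that called no region of the series in either comparison while 4111 and 4363 regions had an unadjusted p under 0.05. They were also lost with all peaks of each list (0.216, adjusted p = 0.316, and 0.197, adjusted p = 0.418), with the strongest 4000 peaks and 2 short lists (adjusted p = 0.409 and 0.209), and when only presence or absence of a peak was used, since the peak was present in every library.

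**Figure D2:**
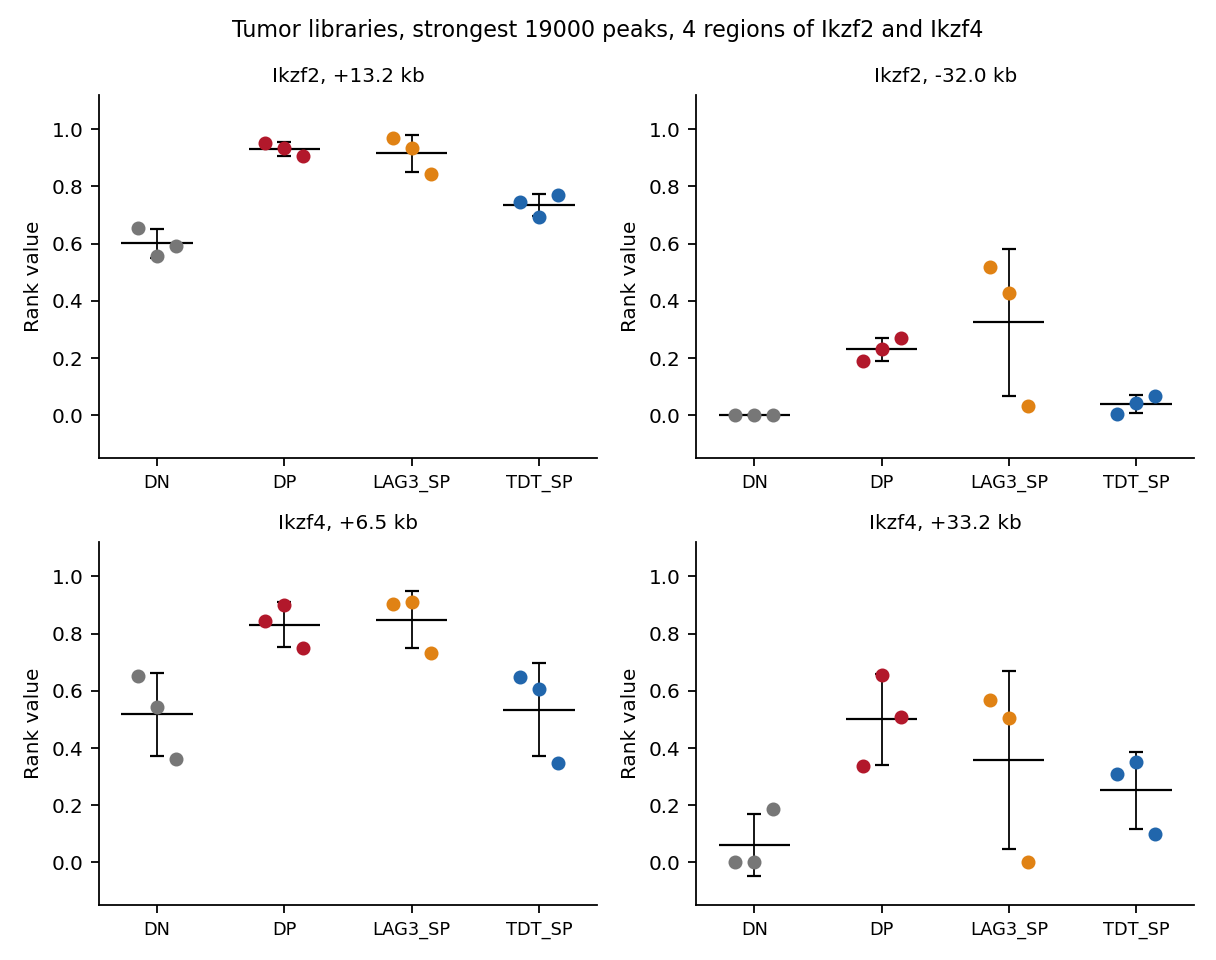
Rank values (vertical axis, 0 to 1) of 2 Ikzf2 and 2 Ikzf4 regions in the 12 tumor libraries, strongest 19000 peaks. Points are libraries, horizontal lines are group means and error bars are SD (n = 3). At the Ikzf2 region at 13.2 kb, DN lies between 0.557 and 0.656, below all other groups.

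These 2 calls stand against the whole series as follows. For DP minus DN, 1 of 27 member regions was called, higher in DP, beside 3.94% of all regions (2.6% higher). For LAG3_SP minus DN, 1 of 27 was called, higher in LAG3_SP, beside 5.62% of all regions (3.61% higher). At these shares the count of member regions is near the background, so the result is about this 1 region and not about the family. At an unadjusted p under 0.05, 7 member regions passed for DP minus DN and 6 for LAG3_SP minus DN, beside 18.4% and 22.8% of all regions. LAG3_SP replicate 3 decides the second count: without it 9 of 27 member regions were called, all higher in LAG3_SP, beside 9.59% of all regions. The 9 were 4 of Ikzf1, 3 of Ikzf2 and 2 of Ikzf4, and they rest on the 2 LAG3_SP libraries left. Tumor DN 4, DP 4, LAG3_SP 3 and TDT_SP 3 deviated together from their group means, with correlations of 0.187 to 0.333. Without LAG3_SP 3 the DN group still holds DN 4, and the part of this shared deviation in the gained calls was not tested. That limit holds for every call gained without LAG3_SP replicate 3. For LAG3_SP minus DN the count was 2 without TDT_SP replicate 3, beside 5.31% of all regions. For DP minus DN it was 2 without DP replicate 1 or without DP replicate 4, beside 1.89% and 4.49% of all regions.

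Some marker lists of other cells moved with these groups. The NK list was lower in LAG3_SP than in DN, and the melanoma list overlapped in all groups. The myeloid list summed to 1.17 to 1.86 rank units in tumor DN, 2.83 to 2.96 in DP, 2.15 to 2.44 in TDT_SP and 2.19 to 3.28 in LAG3_SP, with kept peaks at 2 or 3 of its 6 genes and none at Lyz2, Csf1r or Adgre1. Its kept peaks in tumor were at Itgam and Cebpb, and in TDT_SP also at Spi1. The B cell list summed to at most 0.529 in DN, 0.735 to 0.923 in DP, 0.329 to 0.501 in TDT_SP and 0.654 to 1.13 in LAG3_SP, with kept peaks at 1 to 3 of 7 genes and none at Cd79a, Cd79b or Ms4a1. The CD4 and Treg list, relevant because Helios marks many regulatory T cells, summed to 0.407 to 0.622 in DN, 0.569 to 0.771 in DP, 0.358 to 0.584 in TDT_SP and 0.589 to 1.92 in LAG3_SP. Foxp3, the factor that defines regulatory T cells, had no kept peak in tumor DN, DP or TDT_SP, and had one in LAG3_SP. It also had one in the lymph nodes, where the list summed to 0.573 to 1.59. Cd4 had no kept peak in tumor DN and had one in each of the other tumor groups and in the nodes. The NK list summed to 2.71 to 3.0 in DN, 1.82 to 2.86 in DP, 2.37 to 3.08 in TDT_SP and 1.76 to 2.27 in LAG3_SP. In the same order the melanoma list summed to 2.37 to 3.04, 2.61 to 2.66, 2.02 to 2.99 and 1.96 to 3.08. The part of any of these cells in the Ikzf2 values was not tested.

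The other Ikzf2 regions did not pass a test within tumor with all 12 libraries. A region 32 kb below the gene, chr1:69498971-69499471, had no kept peak in the 3 DN libraries, 0.191, 0.232 and 0.270 in DP, 0.00458, 0.0423 and 0.0673 in TDT_SP and 0.517, 0.426 and 0.0323 in LAG3_SP. Its difference DP minus DN was 0.231 (adjusted p = 0.262) and LAG3_SP minus DN was 0.325 (adjusted p = 0.0935). Without LAG3_SP replicate 3 it passed for LAG3_SP minus DN (0.472, adjusted p = 0.00429) and for LAG3_SP minus TDT_SP (0.434, adjusted p = 0.0150). With no kept peak, the DN group adds no spread there, so the p-values against DN are a description only. A region 65.48 kb above the gene, chr1:69752583-69753083, was the next strongest, with a kept peak in all 12 tumor libraries and group means (± SD, n = 3) of 0.679 ± 0.269 in LAG3_SP, 0.666 ± 0.0646 in DP, 0.608 ± 0.0754 in TDT_SP and 0.456 ± 0.179 in DN. There LAG3_SP minus DN was 0.224 (adjusted p = 0.304), and without LAG3_SP replicate 3 it was 0.371 and passed (adjusted p = 0.0455). At the upper end of the gene, chr1:69687298-69687798 had a kept peak in 11 of 12 libraries, between 0.240 and 0.662, and in LAG3_SP replicate 1 it had none. That end region had its lower means in DP and LAG3_SP, the reverse of the region at 13.16 kb, but DP minus DN was -0.107 (SE 0.134, adjusted p = 0.729).

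The rank values of all kept Ikzf2 peaks were also summed per library. The sums were 1.96, 2.05 and 2.44 in DN, 2.68, 2.89 and 2.70 in DP, 2.27, 2.36 and 2.42 in TDT_SP and 3.45, 3.27 and 2.81 in LAG3_SP. DP and LAG3_SP lay above DN and TDT_SP without overlap. Ikzf2 was the only 1 of the 4 genes whose sums differed among the tumor groups (F = 12.8, adjusted p = 0.0344, limma over 12182 genes, of which 3.79% were called). That call is fragile: it was lost without any one of 9 libraries (DN replicates 1 and 2, DP 1 and 2, LAG3_SP 1 and 2, and TDT_SP 1, 2 and 3), with adjusted p from 0.0547 to 0.0934, and with all peaks, the strongest 10000, the strongest 4000 or presence alone. Without LAG3_SP replicate 3, 2 of the 4 genes passed, Ikzf2 and Ikzf4.

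In the lymph nodes the Ikzf2 region at 13.16 kb also ranked lowest in DN. With the strongest 14000 peaks, DLN had 0.236 in DN, 0.806 in TDT_SP and 0.784 in LAG3_SP, and NDLN had 0.641 in DN, 0.900 in TDT_SP and 0.911 in LAG3_SP. With 1 library of each kind the node values have no replicate check within a node. The difference tumor minus lymph node was -0.0504 (adjusted p = 0.554), and the test of whether subset differences differed between tissues gave an adjusted p of 0.489.

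Ikzf4, which encodes Eos, had the second strongest member region, with DP and LAG3_SP again above DN but without a call. It lies inside the gene at chr10:128637043-128637543, 6.45 kb from its lower end, and was covered by a peak in all 18 lists. Rank values were 0.651, 0.542 and 0.363 in DN, 0.846, 0.901 and 0.749 in DP, 0.647, 0.607 and 0.348 in TDT_SP and 0.902, 0.911 and 0.733 in LAG3_SP. DP and LAG3_SP lay above DN and TDT_SP without overlap. DP minus DN was 0.313 (SE 0.0935, adjusted p = 0.0879), LAG3_SP minus DN was 0.330 (adjusted p = 0.0593), TDT_SP minus DP was -0.297 (adjusted p = 0.254) and LAG3_SP minus TDT_SP was 0.314 (adjusted p = 0.125). LAG3_SP minus DN passed without LAG3_SP replicate 3 (0.388, adjusted p = 0.0353) and without TDT_SP replicate 3 (0.330, adjusted p = 0.0337).

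A region near the other end of Ikzf4, chr10:128663742-128664242, was at 0, 0 and 0.187 in DN, 0.337, 0.654 and 0.510 in DP, 0.309, 0.351 and 0.0999 in TDT_SP and 0.569, 0.506 and 0 in LAG3_SP. DP lay above DN without overlap, and LAG3_SP overlapped every other group, with replicate 3 at 0. DP minus DN was 0.438 (SE 0.156, adjusted p = 0.150). LAG3_SP minus DN was 0.296 (adjusted p = 0.277), and without LAG3_SP replicate 3 it was 0.476 and passed (adjusted p = 0.0453). None of the 6 lymph node lists had a peak over this region, at any rank, while 11 of the 12 tumor lists did. With the strongest 14000 peaks, 4 of the 9 tumor libraries compared with the nodes held a kept peak there, and tumor minus lymph node did not pass (0.103, SE 0.055, adjusted p = 0.178). The sums for Ikzf4 were 0.651, 0.542 and 0.884 in DN, 1.18, 1.55 and 1.54 in DP, 0.956, 0.958 and 0.448 in TDT_SP and 1.55, 1.42 and 0.733 in LAG3_SP (F = 5.0, adjusted p = 0.186).

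**Figure D3:**
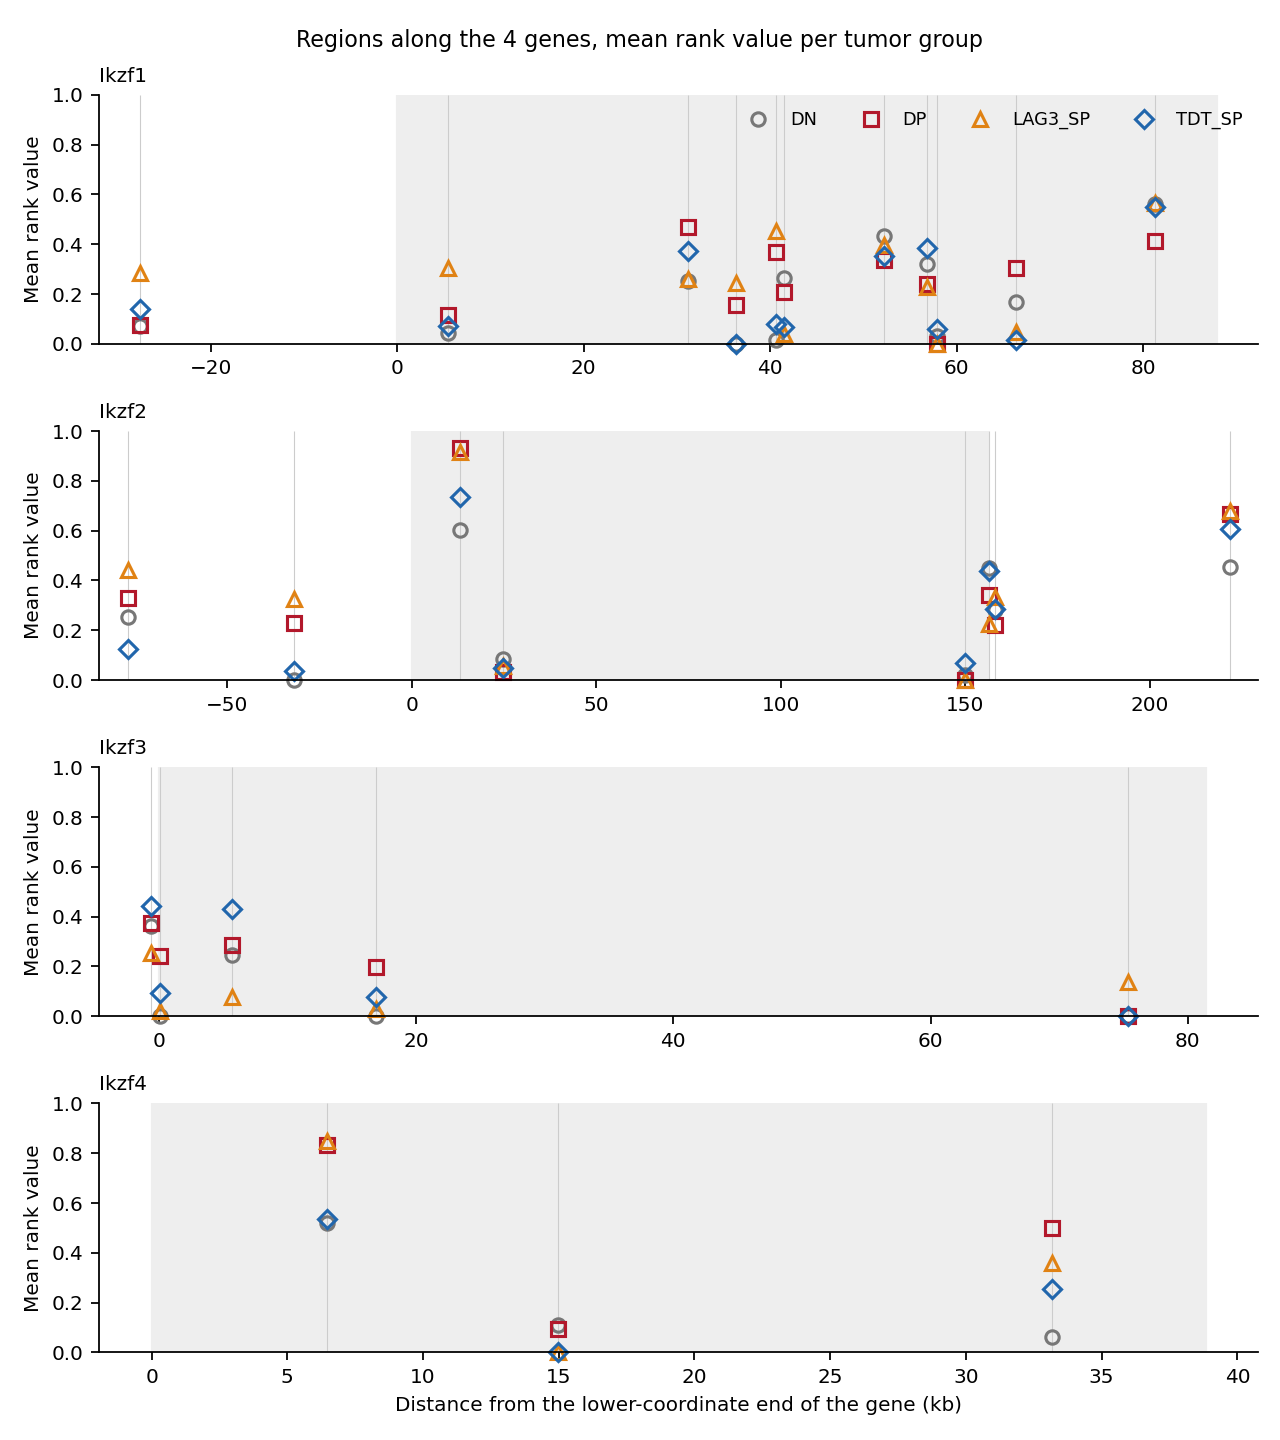
Mean rank value (vertical axis) of each tumor region against its distance from the lower-coordinate end of the gene in kb (horizontal axis), for the 4 genes. The grey band is the gene, symbols are means of 3 libraries per group, strongest 19000 peaks, and the group means at the Ikzf2 region at 13.2 kb run from 0.601 in DN to 0.931 in DP.

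Ikzf1, which encodes Ikaros, had the most regions, and its called difference was between tumor and lymph node. The clearest is an intragenic region at chr11:11725971-11726471, 41.26 kb from the lower end, among the strongest peaks of most lymph node libraries and below the strongest 14000 in most tumor libraries. In DLN its rank values were 0.948 in DN, 0.911 in TDT_SP and 0.578 in LAG3_SP, and in NDLN they were 0.901 in DN, 0.734 in TDT_SP and 0.167 in LAG3_SP. In tumor it was 0.332 in DN replicate 1 and 0 in the other 8 libraries of DN, LAG3_SP and TDT_SP. The DP libraries, which have no lymph node counterpart and stay out of this test, had 0, 0.4006 and 0. Tumor and lymph node overlapped through NDLN LAG3_SP. A weaker peak was often present in the full tumor lists: in the 9 lists, 7 had one, with fold enrichments of 3.65 to 8.64. In the lymph node DN and TDT_SP lists the fold was 11.8 to 18.6. In the lymph node LAG3_SP lists it was 10.9 in DLN and 4.77 in NDLN, the latter inside the tumor range.
Tumor minus lymph node was -0.67 (SE 0.0989, adjusted p = 0.000708). Of the tumor libraries compared only DN replicate 1 held a kept peak, so the region passed the 2-library filter only through the nodes. Most tumor values are 0 without spread, so this p-value is a description only. Without any 1 library the difference was -0.761 to -0.627, but the same tumor values of 0 enter those fits, so this adds no support. With all peaks of each list the call was lost (-0.428, adjusted p = 0.0762).

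The peak at this site was broad, up to 1592 bp, and its summit moved by 907 bp between lists, so neighbouring regions share it in some libraries. The region 0.6 kb below, chr11:11725405-11725905, held the same broad peak in DLN DN (0.948) and DLN TDT_SP (0.911), and its own peak in NDLN LAG3_SP (0.684) and tumor LAG3_SP replicate 1 (0.582). It did not pass with all libraries, and passed without DLN LAG3_SP replicate 1 (-0.455, adjusted p = 0.0455). Within tumor, the window at chr11:11725317-11725817 was at 0, 0.0460 and 0 in DN, 0.0852, 0.558 and 0.458 in DP, 0, 0.179 and 0.0594 in TDT_SP and 0.692, 0.366 and 0.306 in LAG3_SP. DP and LAG3_SP lay above DN, without overlap, but DP minus DN (0.352, adjusted p = 0.188) and LAG3_SP minus DN (0.440, adjusted p = 0.0827) did not pass. Without LAG3_SP replicate 3 the second did (0.514, adjusted p = 0.0479).

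The Ikzf1 sums were also lower in tumor, although single libraries ordered differently from the region: NDLN LAG3_SP had the highest sum and the lowest node value at the region. The sums were 2.82 and 3.08 in lymph node DN, 2.93 and 2.32 in TDT_SP and 1.25 and 3.59 in LAG3_SP, each DLN first. In tumor they were 1.58, 0.964 and 0.720 in DN, 0.776, 1.20 and 0.559 in TDT_SP and 2.70, 1.08 and 0.503 in LAG3_SP. The medians were 2.88 over 6 node libraries and 0.964 over 9 tumor libraries, and the tissues overlapped through DLN LAG3_SP (low) and tumor LAG3_SP replicate 1 (high). Tumor minus lymph node was -1.54 (SE 0.377, adjusted p = 0.0116), and Ikzf1 was the 1 gene of 4 called, beside 23.2% of 11427 genes (10.4% lower in tumor). The call held without any 1 library (-1.90 to -1.35, adjusted p at most 0.0325), and was lost with all peaks of each list (adjusted p = 0.578) and with presence or absence of a peak (-2.28, adjusted p = 0.192). Without DLN LAG3_SP replicate 1, Ikzf2 passed too (-0.590, adjusted p = 0.0458), so 2 of 4 genes were called. Among the 4 tumor groups the Ikzf1 sums did not differ beyond their spread (F = 0.809, adjusted p = 0.766).

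**Figure D4:**
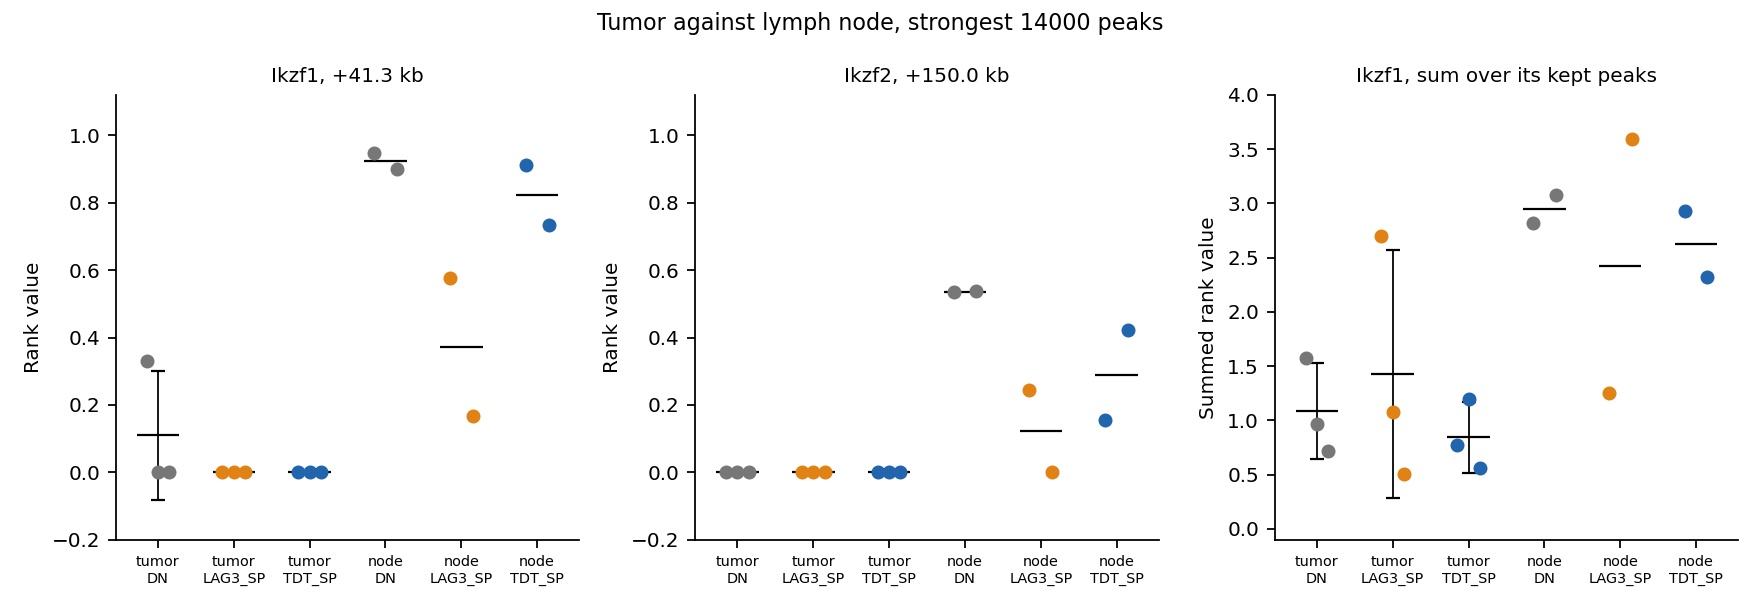
Rank values of the Ikzf1 region at 41.3 kb (left) and the Ikzf2 region at 150.0 kb (middle), and the summed rank value of Ikzf1 (right), strongest 14000 peaks, by tissue and sorted group. Points are libraries, lines are means and error bars are SD where n = 3. All tumor points of the Ikzf2 region are at 0, and its node points reach 0.537.

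A second region was called between the tissues, inside Ikzf2 at chr1:69680941-69681441, 6.16 kb from its upper end. In DLN it was 0.534 in DN, 0.154 in TDT_SP and 0.244 in LAG3_SP, and in NDLN it was 0.537 in DN, 0.424 in TDT_SP and 0 in LAG3_SP, while all 9 tumor libraries were at 0. The values overlapped only through the 0 of NDLN LAG3_SP. Tumor minus lymph node was -0.315 (SE 0.0665, adjusted p = 0.00441), and with all peaks of each list it was lost (-0.336, adjusted p = 0.146). All 5 kept peaks were in nodes, so the region passed the 2-library filter only through the tissue where it is high. The tumor values of 0 have no spread, so the SE and p-value are a description only. In the full lists 6 of the 9 tumor libraries had a weaker peak there. The myeloid list summed to 0.304 to 1.48 in the nodes, below most tumor libraries, and the part of myeloid cells in these differences was not tested.
In all, 2 of 24 member regions were called between tumor and lymph node, both lower in tumor, beside 22.2% of all regions (11.7% lower). The member share is below the background, and both regions passed the 2-library filter only through the nodes. Without DLN LAG3_SP replicate 1 the count was 4, beside 24.4% of all regions, with NDLN LAG3_SP then the only node LAG3_SP library. For the interaction of subset and tissue 0 of 24 were called by limma and 5 had an unadjusted p under 0.05, beside 7.8% and 20.2% of all regions. That count rests on single libraries: it was 2 without tumor LAG3_SP 3, beside 10.7% of all regions. It was 1 without tumor TDT_SP 1 or tumor TDT_SP 3, beside 5.78% and 6.27%. Leaving out a node library leaves 1 library in its tissue and subset group, so no interaction count is given for those fits.

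The strongest Ikzf1 region within tumor was another one, chr11:11766004-11766504, 6.68 kb from the upper end. It had a kept peak in all 12 tumor libraries and a mean of 0.522, with group means (± SD, n = 3) of 0.566 ± 0.156 in LAG3_SP, 0.561 ± 0.049 in DN, 0.548 ± 0.0991 in TDT_SP and 0.412 ± 0.191 in DP. The groups overlapped, and DP minus DN was -0.149 (SE 0.115, adjusted p = 0.538). The region at the second annotated start shown above, chr11:11690155-11690655, was weak, with 8 of 12 tumor libraries holding a kept peak. Its values were 0.127, 0 and 0 in DN, 0.107, 0.148 and 0.0936 in DP, 0, 0 and 0.212 in TDT_SP and 0.538, 0.289 and 0.0890 in LAG3_SP. LAG3_SP minus DN was 0.263 (SE 0.104, adjusted p = 0.156), and without LAG3_SP replicate 3 it was 0.371 (adjusted p = 0.0337).

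Ikzf3, which encodes Aiolos, had no called region, and its best peak in a list stood between 18.97% and 72.098% from the top, against 1.937% at best for Ikzf1 and 1.996% for Ikzf2. The strongest region in tumor was at its lower end, chr11:98463767-98464267, at 0.412, 0.424 and 0.250 in DN, 0.548, 0.085 and 0.491 in DP, 0.346, 0.406 and 0.581 in TDT_SP and 0, 0.424 and 0.332 in LAG3_SP. The groups overlapped. A region 5.71 kb inside, chr11:98470069-98470569, was highest in TDT_SP (0.510, 0.495 and 0.288) and low in LAG3_SP (0.0102, 0.221 and 0), and LAG3_SP minus TDT_SP was -0.354 (SE 0.135, adjusted p = 0.211). Another at the lower end, chr11:98464441-98464941, had no kept peak in DN and 0.0392, 0.276 and 0.415 in DP (difference 0.243, SE 0.0812, adjusted p = 0.125), and without DP replicate 1 it passed (0.346, adjusted p = 0.0309). The DN group adds no spread at this region, so both p-values are a description only.
The Ikzf3 sums ran from 1.05 to 1.16 in DP and from 1.10 to 1.17 in TDT_SP, above DN (0.25 to 0.891) and LAG3_SP (0.34 to 0.871) without overlap (F = 7.06, adjusted p = 0.108). This grouping set TDT_SP with DP, while the Ikzf2 and Ikzf4 sums set TDT_SP nearer to DN, and whether the genes differed in this was not tested.

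**Figure D5:**
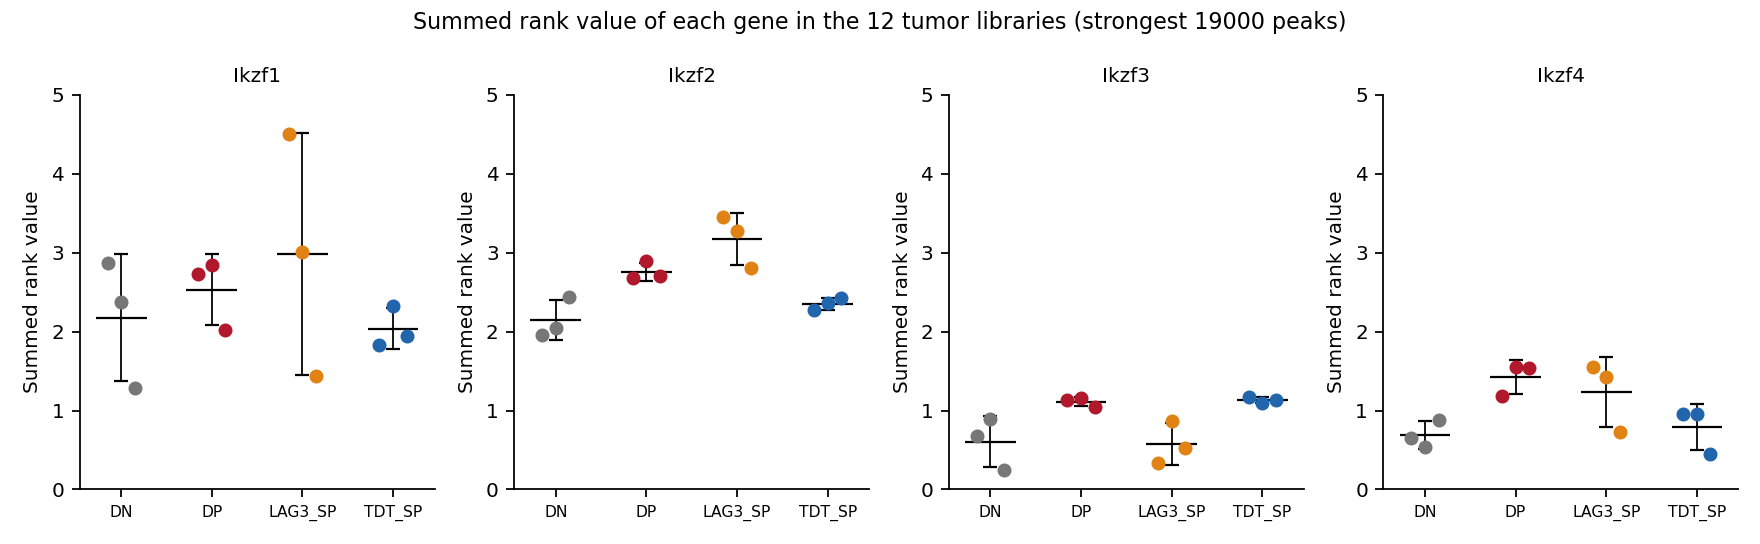
Summed rank value per library (vertical axis) of each gene in the 4 tumor groups, strongest 19000 peaks. Points are libraries, lines are means and error bars are SD (n = 3). For Ikzf2, LAG3_SP and DP lie between 2.68 and 3.45, above DN and TDT_SP between 1.96 and 2.44.

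In the other 4 tumor comparisons limma called no member region. TDT_SP minus DN had 0 of 27 called and 1 with an unadjusted p under 0.05, beside 0.576% and 9.44% of all regions. LAG3_SP minus DP had 0 and 2, beside 0% and 5.81% of all regions. TDT_SP minus DP had 0 and 3, beside 0.0333% and 11.7%. LAG3_SP minus TDT_SP had 0 and 7, beside 0.938% and 17.5%. Without LAG3_SP replicate 3 it had 2 called, both of Ikzf2, beside 3.09% of all regions. Over all 27 regions the median difference was 0.0401 for DP minus DN, 0.0216 for LAG3_SP minus DN and 0.0285 for TDT_SP minus DN, beside -0.005, -0.0166 and 0.00265 over all regions. Between tissues it was -0.0479 beside 0.00881.

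Partners of the family were followed as a list of 24 genes: Ikzf5, the NuRD and corepressor genes, and the cereblon ligase through which imide drugs degrade Ikaros and Aiolos in human cells. Of these, 22 had 60 regions within tumor and 21 had 51 regions with lymph nodes. For DP minus DN 1 of 60 was called, at Mbd2, a methyl-CpG binding subunit of NuRD (0.55, SE 0.107, adjusted p = 0.013). For LAG3_SP minus DN 3 were called: higher at Mbd2 (0.716) and Mta3, another NuRD subunit (0.414), and lower at the deacetylase gene Hdac2 (-0.226). For TDT_SP minus DN 1 was called, higher at the remodeler gene Chd3 (0.286, adjusted p = 0.0196). For LAG3_SP minus TDT_SP 4 were called, higher at Mbd2 (0.625) and lower at Chd3 in 2 regions (-0.286 and -0.558) and at the NuRD subunit gene Gatad2a (-0.646). No region of the list was called for LAG3_SP minus DP or TDT_SP minus DP. These are shares of 1.67%, 5%, 1.67% and 6.67%, beside 3.94%, 5.62%, 0.576% and 0.938% of all regions in the same order, and each rests on 1 to 4 regions. Between tissues 10 of 51 were called, or 19.6% beside 22.2% of all regions. Of them 7 were higher in tumor, with the largest at Mbd3 (0.73, adjusted p = 0.0012) and the others at Smarca4, Gatad2a, Rbx1 and Hdac1, and 3 were lower, at Mbd2, Mta3 and Crbn. The interaction called 3 of 51, or 5.88% beside 7.8% of all regions, at Mbd2 in 2 regions and at Mta3.

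Across the 18 libraries the 4 genes had little in common: Pearson's r between their sums ran from -0.153 (Ikzf1 and Ikzf3) to 0.439 (Ikzf1 and Ikzf2). The genes whose sums were most like Ikzf1 were Cblb (r = 0.943), Sh3kbp1 (0.930) and Cd28 (0.887). For Ikzf2 they were Mef2c (0.856), Sla (0.842) and Pik3r1 (0.833), for Ikzf3 Tuba1c (0.773), Ubfd1 (0.758) and Pigt (0.742), and for Ikzf4 Gas2 (0.910), Xcl1 (0.887) and Fh1 (0.879). These are the 3 highest of 5931 genes (5932 for Ikzf3), over 18 libraries that share tissue and list length, so they are a description only.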

How the data were processed

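The deposited files gave 1 MACS2 peak list per library, made from reads aligned with BWA to GRCm38 (mm10) per the submitters' processing notes, with no version stated. A deposited peak carried a score, a fold ratio over local background, a -log10 p and a -log10 q (the -log10 columns are the authors'), and a summit offset. Read counts are not in these lists, so depth is unknown, no counting interval is given, and list length was the only sign of depth.

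Ranking by -log10 p covered chromosomes 1 to 19 and X (53 of 586440 peaks lay elsewhere). The 19000 strongest of each tumor list, or 14000 with lymph nodes, received their quantile. Regions of 501 bp around summits, strongest first, needed a kept peak overlapping by 1 bp in 2 libraries. Summits went to the nearest of 21627 protein-coding genes within 100 kb. limma 3.58.1 (R 4.3.3, eBayes with a trend) compared regions, and summed rank values per gene, with 4 tumor groups in 1 fit and sorted subset as covariate between tissues, both nodes pooled. DP had no node library. Benjamini-Hochberg adjustment ran over all regions or genes. Each node subset had 2 libraries, 1 per node. The fits were tested on simulated data. Tables were made in Python 3.11.15 with pandas 2.3.3 and figures with matplotlib 3.10.9.

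The member genes, lists and comparisons were chosen with earlier results of these data known. The regions named were, for each gene, the strongest in tumor, the one at the annotated start (known for Ikzf1 alone, for the others the nearest gene end), every called region, and otherwise the smallest p. Regions named beside these were chosen after their values were seen. Alternatives were other peak numbers, stricter q, summit overlap, presence of a peak, no trend, the compared groups alone, a replicate block, short lists included and each library left out.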

Additional observations from a re-analysis of the deposited data

Results flagged for a closer look

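Of the 6 short lists outside the comparisons, 2 had a peak over the Ikzf2 region at chr1:69544118-69544618, and both came from tdTomato+ cells: tumor DP replicate 3 with the authors' fold enrichment of 4.71 (rank 4867 of 5188) and DLN TDT_SP replicate 2 with 5.79 (rank 2369 of 3909). The 3 short DN lists (301, 4603 and 6613 peaks) and NDLN TDT_SP replicate 2 (321 peaks) had none there. These lists differ so much in length that the absence of a peak in the shorter ones carries little information, and the difference was not tested.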

How the results depend on the processing

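Calls rest on the order of peaks within lists and on a spread shared by all groups of a fit, and list length limits which weak peaks can be compared. Besides the main values, single regions and genes were computed again under each alternative. Of these results, 794 stayed called or stayed uncalled without a reversed sign, 15 gained a call, 28 lost it and 10 changed sign, all 10 uncalled. The 794 include uncalled results that stayed uncalled, differences of 0, and F tests, which have no sign. The causes were not tested.

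With a replicate block, the number of member regions called was 2 for DP minus DN, 2 for LAG3_SP minus DN and 1 for tumor minus lymph node, where the Ikzf2 region at 6.16 kb from the upper end was lost (adjusted p = 0.0863). The region gained in both tumor comparisons was the Ikzf4 region at 6.45 kb (0.313, adjusted p = 0.018, and 0.346, adjusted p = 0.0227). With the block the tumor minus lymph node count of genes was 0, since Ikzf1 was lost (-0.979, adjusted p = 0.267), and the tumor group test lost Ikzf2 (adjusted p = 0.0682) and gained Ikzf4 (0.04). Same-numbered tumor libraries correlated between 0.027 and 0.268, over 0.1 in 7 of 14 pairs. Those of other numbers correlated between -0.251 and 0.333, over 0.1 in 11 of 40 pairs, so the numbers are not shown to pair the libraries. Tumor DN 4, DP 4, LAG3_SP 3 and TDT_SP 3 correlated with each other at 0.187 to 0.333. Libraries thus shared deviations across groups, which the main fits, treating libraries as independent, do not model.

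With only the compared groups fitted, DP minus DN and LAG3_SP minus DN each called 0. With all peaks of each list, both called 0, tumor minus lymph node called 1, the interaction 3, and the gene sums 0 among tumor groups and 0 between tissues. With the strongest 4000 peaks and 2 short lists, where 2 member regions remained testable, both called 0 and the gene sums 0. With the strongest 10000 the interaction called 1 and the tumor group sums 0. Without a trend the interaction called 1. With presence or absence, TDT_SP minus DN called 1 and both gene tests 0, and the Ikzf2 region at 13.16 kb, present in every library, differed by 0.

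Leaving out 1 library gave counts of 1 to 2 for DP minus DN and 1 to 9 for LAG3_SP minus DN. Counts were 0 to 2 for LAG3_SP minus TDT_SP and 2 to 4 for tumor minus lymph node. They were 0 to 2 for tumor group sums and 1 to 2 for tissue sums. For the interaction the count was at most 2 when a tumor library was left out. TDT_SP minus DN, LAG3_SP minus DP and TDT_SP minus DP stayed at 0.

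The sign changes were these. At chr1:69498971-69499471 (Ikzf2), LAG3_SP minus DP was 0.0945, with all peaks -0.0162, and -0.00134 to 0.241 without 1 library. At chr11:98463851-98464351 (Ikzf3), tumor minus lymph node was 0.0255, with the block -0.0331, with 10000 peaks -0.0468, and -0.0168 to 0.125 without 1 library. At chr10:128645554-128646054 (Ikzf4), LAG3_SP minus DP was -0.0952 and with the block 0.00805. The Ikzf3 sum between tissues was 0.0381, with 10000 peaks -0.0437, and -0.0119 to 0.128 without 1 library.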
